A study of Mus musculus with 10 samples.

Results

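Genes of the Wnt pathway were followed in the cochlea, the hearing organ of the inner ear, of newborn female mice in which the nuclear receptor gene Esrrg was to be deleted. The members were chosen by mouse symbol alone: the Wnt ligands, the Frizzled receptors and their co-receptors Lrp5 and Lrp6, the R-spondins with the Lgr receptors and the ubiquitin ligases Znrf3 and Rnf43, the secreted antagonists, the Dishevelled (Dvl) and Axin genes with Ctnnb1, the Tcf7 and Lef1 transcription factors, and the core genes of planar cell polarity. The deposited table of 54532 genes held 68 of them, all protein-coding, and 60 of these reached 10 counts in at least 5 libraries and were tested among 18061 genes.

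Per the labels, both groups carried Esrrg alleles flanked by loxP sites. The control group had the genotype Esrrgfl/fl, and the conditional knockout group (cKO) had Esrrgfl/fl;Sox10-Cre, a Cre recombinase driven by Sox10 regulatory elements, which act in the otic epithelium, in glia and in melanocytes. All mice were females on postnatal day 1, and there were 5 libraries per genotype. Each library came from a single animal, with the soft tissue of its ears combined once the bony capsule was off. As no group carried Sox10-Cre without the floxed alleles, an effect of the deletion and one of the transgene cannot be told apart. Library totals ran from 33.5 to 41.8 M counts (M, mega).

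Esrrg itself, the targeted gene, was higher in the libraries labelled cKO. CPM are counts per mega of a library's total over the tested genes, scaled by TMM factors. Esrrg was at 47.9 to 64.8 CPM in controls and at 70.6 to 109.0 CPM in the libraries labelled cKO. The edgeR estimate, the log2 fold change of that group over controls, was 0.62 (SE 0.118, adjusted p 0.0292). The exact two-sided permutation test over 252 assignments gave p = 0.00794, the smallest value it can give with 5 against 5. The label states a genotype and not an RNA level, and a count over all exons does not show whether 1 exon was removed. These counts thus do not show the deletion. The name libraries labelled cKO is therefore kept throughout, and each direction given rests on that label. Leaving out single libraries moved the edgeR adjusted p above 0.05 in 6 of 10 fits, with 0.0998 as the highest (without cKO 2).

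The labelled tissue was checked against marker genes of 13 cell types or tissues and of proliferation. None of these markers was at 0 in every library, and the periotic mesenchyme genes Otor and Coch, the tectorial membrane gene Tecta and the hair cell gene Pou4f3 were all present. Marker lists of chondrocytes, osteoblasts, erythroid cells and macrophages were present as well, so the soft tissue held more than the sensory epithelium. By edgeR the hair cell list had 1 gene called lower (Pvalb), the marginal cell list 1 (Sgpp2), the spiral ganglion list 2 and the brain list 4. Each of the other lists had 0 called in either direction. The calls do not stand for their whole lists. Estimates were above 0 for 3 of 7 hair cell markers and 5 of 6 marginal cell markers. They were also above 0 for 3 of 9 spiral ganglion markers and 3 of 8 tested brain markers. In such bulk samples, fewer cells of a type and less RNA per cell cannot be told apart.

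Wnt proteins are secreted, lipid-modified signals that bind a Frizzled receptor together with Lrp5 or Lrp6. In the canonical branch this stabilises beta-catenin, encoded by Ctnnb1, which joins Tcf and Lef factors on DNA, and Axin holds the complex that otherwise destroys beta-catenin. R-spondins bound to Lgr4, Lgr5 or Lgr6 protect Frizzled receptors from Znrf3 and Rnf43. In the noncanonical branch, ligands such as Wnt5a act with Vangl, Celsr and Prickle proteins to orient cells in the plane of a tissue, which in the cochlea aligns the hair cell bundles. Canonical signalling is known there for its role in the prosensory progenitors and in Lgr5-bearing supporting cells.

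Upstream sequence was read for the members because the targeted factor and the pathway's own effectors bind known DNA motifs. RefSeq windows (GRCm38.p6) matched 46 of the 68 members by symbol and gave 60 windows of 250 bases before a transcript start. Both strands were searched for the estrogen-related receptor core AAGGTCA, for the longer TCAAGGTCA that contains it, and for the Tcf and Lef cores CTTTGAT and CTTTGAA, which differ in the last base. The receptor core was found in 1 member window, that of Tcf7, and in 4.08% of all 32851 windows, while the longer motif was found in 0 member windows and in 0.387% of all. CTTTGAT lay in windows of Prickle2, Wnt11 and Wnt5b, with 3.21% of all windows holding it, and CTTTGAA lay in that of Dkk1, with 4.46% of all. Such a match describes letters and is not a measured binding site.

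The windows shown here are those of Sfrp2 and Wnt3, the members with the smallest unadjusted p among the higher and the lower estimates, then those of Tcf7, Wnt11, Wnt5b, Prickle2 and Dkk1, which hold a motif. They read 5′ to 3′ on the gene's strand, with motif matches in capitals. For Wnt3, bases that the gene annotation counts as exon were left off, so it ends 25 bases before its RefSeq start. In Tcf7 and Dkk1 more than 30 bases of the window are annotated exon, and only 30 bases around the match are given. These 30 bases lie inside the annotated span of the gene and were not checked against its exons. In Tcf7 and Wnt11 the capitals are the motif read on the opposite strand.
Sfrp2, chr3:83766071-83766320, plus strand: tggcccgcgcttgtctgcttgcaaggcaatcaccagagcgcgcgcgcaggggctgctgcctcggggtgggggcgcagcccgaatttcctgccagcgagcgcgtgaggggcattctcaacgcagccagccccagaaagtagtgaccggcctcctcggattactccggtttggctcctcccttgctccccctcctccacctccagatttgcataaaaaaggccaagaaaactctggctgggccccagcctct
Wnt3, chr11:103773925-103774149, plus strand: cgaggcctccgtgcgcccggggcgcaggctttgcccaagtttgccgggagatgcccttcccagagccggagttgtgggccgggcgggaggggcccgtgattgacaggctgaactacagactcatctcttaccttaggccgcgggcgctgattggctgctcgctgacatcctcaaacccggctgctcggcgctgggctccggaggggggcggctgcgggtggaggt
Tcf7, chr11:52282596-52282625, minus strand: agtcacttccggtgcccTGACCTTtatagg
Wnt11, chr7:98834862-98835111, plus strand: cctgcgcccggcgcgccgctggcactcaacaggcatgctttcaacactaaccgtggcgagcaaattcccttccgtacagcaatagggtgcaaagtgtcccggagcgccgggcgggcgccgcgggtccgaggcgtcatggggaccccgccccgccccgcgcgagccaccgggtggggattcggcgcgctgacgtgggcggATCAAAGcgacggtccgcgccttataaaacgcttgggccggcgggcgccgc
Wnt5b, chr6:119449387-119449636, minus strand: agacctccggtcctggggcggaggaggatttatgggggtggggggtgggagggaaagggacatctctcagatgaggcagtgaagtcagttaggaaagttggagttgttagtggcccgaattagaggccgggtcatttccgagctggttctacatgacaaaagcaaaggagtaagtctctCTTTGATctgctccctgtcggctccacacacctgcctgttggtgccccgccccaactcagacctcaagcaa
Prickle2, chr6:92567367-92567616, minus strand: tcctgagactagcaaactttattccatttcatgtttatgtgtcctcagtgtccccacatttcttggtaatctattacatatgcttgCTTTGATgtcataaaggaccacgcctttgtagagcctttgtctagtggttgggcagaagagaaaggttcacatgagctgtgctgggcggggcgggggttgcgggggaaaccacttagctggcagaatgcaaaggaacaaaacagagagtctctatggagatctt
Dkk1, chr19:30549596-30549625, minus strand: ctcctcccaaagCTTTGAAatcccatcccg

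The first question was which members the newborn cochlea expressed, and at what level. Levels of different genes are compared on the deposited FPKM scale (fragments per kilobase, corrected for the library total). Means are over all 10 libraries unless a genotype is named. Among the 68 members, Ctnnb1 was the highest at 283 FPKM, followed by the antagonists Sfrp1 at 107 FPKM, Dkk3 at 73.3 FPKM and Sfrp2 at 56.2 FPKM. The highest ligand was Wnt5a at 40.4 FPKM and the highest receptors were Fzd2 and Fzd9 at 49.97 and 49.4 FPKM.

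**Figure D1:**
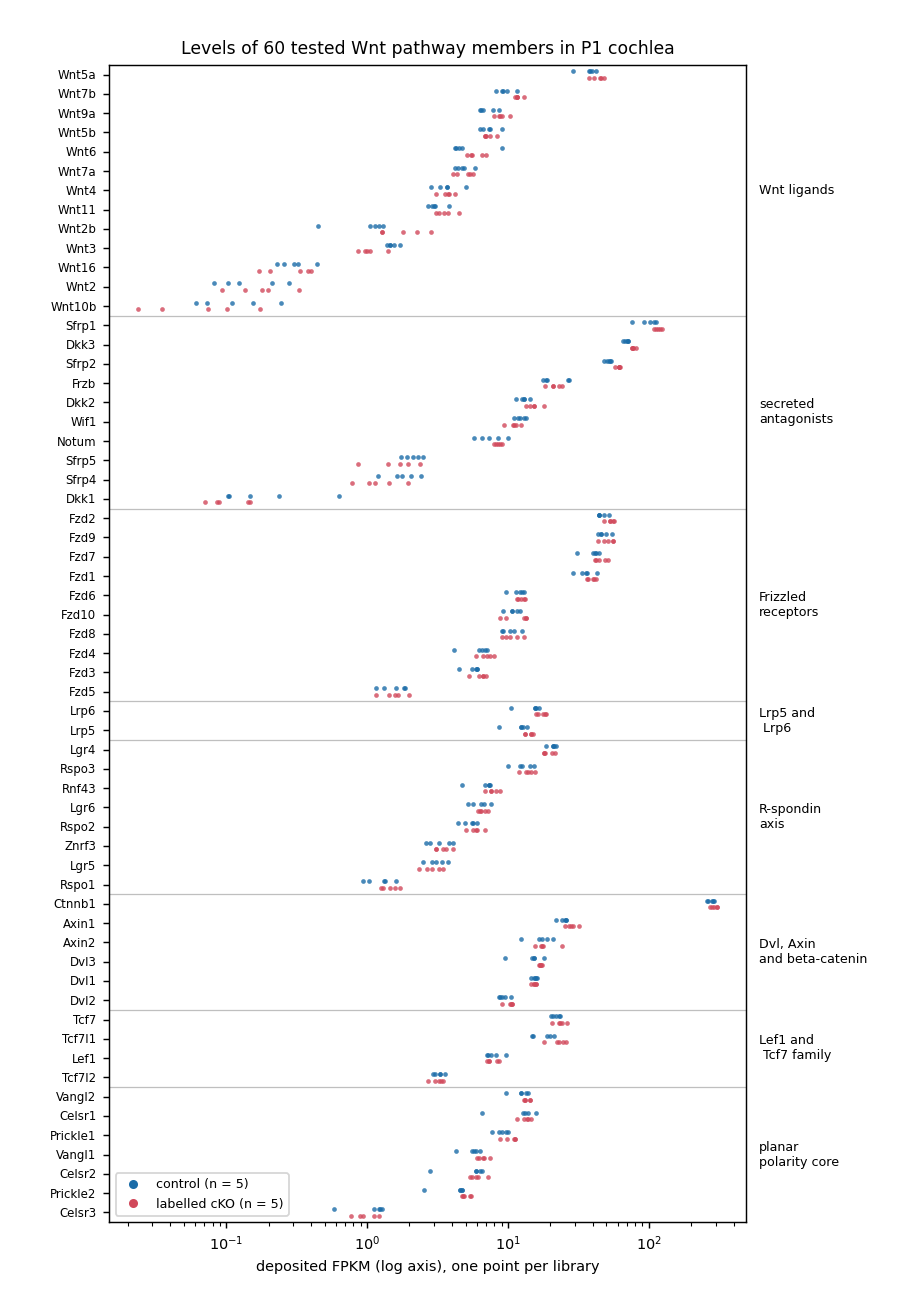
Deposited FPKM of the 60 tested members on a log axis, with 1 point per library (blue, control; red, labelled cKO), ordered by mean level within each role. Ctnnb1, Sfrp1, Dkk3, Sfrp2 and the Frizzled genes Fzd2 and Fzd9 stand at the right, and Wnt16, Wnt2, Wnt10b and Dkk1 lie below 1 FPKM.

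Among the 19 ligands, Wnt5a, known for noncanonical signalling, stood apart from the rest. It took 45.6% ± 5.17 of the summed ligand FPKM in controls (SD, n = 5) and 46.5% ± 2.86 (SD, n = 5) in the other genotype. Wnt7b at 10.7 FPKM and Wnt9a at 8.06 FPKM came next, followed by Wnt5b, Wnt6, Wnt7a, Wnt4 and Wnt11 at 7.35 to 3.35 FPKM. From Wnt7b down to Wnt3 the ranges of neighbours in this order overlapped over the 10 libraries. Within libraries Wnt7b exceeded Wnt9a, and Wnt11 exceeded Wnt2b, in 10 of 10, while the pairs between Wnt9a and Wnt11 were ordered alike in only 6 to 8 of 10. Wnt2b and Wnt3 averaged 1.46 and 1.28 FPKM, and their order differed by genotype. Wnt2b was above Wnt3 in 0 of 5 controls (0.446 to 1.29 against 1.39 to 1.70 FPKM) and in 5 of 5 libraries labelled cKO (1.27 to 2.83 against 0.866 to 1.41 FPKM). Wnt16, Wnt2 and Wnt10b followed at 0.304, 0.174 and 0.105 FPKM.

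The 8 members that were not tested were Wnt1, Wnt3a, Wnt8a, Wnt8b, Wnt9b, Wnt10a, Rspo4 and Dkk4. Wnt9b had 1 to 11 counts per library, Wnt10a had 2 to 7, Wnt3a had 0 to 8, Wnt8b had 0 to 5 and Rspo4 had 0 to 13. Wnt8a and Dkk4 had 0 counts in all 5 libraries labelled cKO and at most 3 and 2 counts in a control library. Wnt1 was at 0 in 8 of 10 libraries. A count of 0 allows up to 3 counts per library, so none of these ligands is shown to be absent, and counting limits cover sampling error only.

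The Frizzled genes fell into 4 levels whose ranges were apart. Fzd2, Fzd9, Fzd7 and Fzd1 lay at 49.97 to 37.4 FPKM, and their neighbours overlapped over the 10 libraries. Fzd6, Fzd10 and Fzd8 lay at 12.1 to 10.6 FPKM without overlap to the first 4 in any library. Fzd4, the receptor known for Norrin and vessel growth, and Fzd3, known for planar polarity, were at 6.58 and 5.97 FPKM and overlapped, and Fzd5 was lowest at 1.56 FPKM. The co-receptor Lrp6 exceeded Lrp5 in 10 of 10 libraries, with means of 16.1 and 13.03 FPKM.

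In the R-spondin axis the receptor Lgr4 was highest at 20.0 FPKM and Rspo3 was the leading ligand at 13.4 FPKM. Both stood apart from their neighbours in all libraries. Rnf43 and Znrf3, which remove Frizzled receptors from the cell surface, were at 7.29 and 3.39 FPKM. Lgr6 at 6.47 FPKM and Lgr5 at 3.03 FPKM, both known as markers of supporting cells, were lower than Lgr4 in bulk tissue. Rspo2 and Rspo1 were at 5.61 and 1.35 FPKM.

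Of the antagonists, the Frizzled-related proteins Sfrp1, Sfrp2 and Frzb bind Wnts, Dkk1 and Dkk2 act on Lrp5 and Lrp6, Wif1 binds Wnts, and Notum removes their lipid. Dkk3 is a relative whose action on Wnt signalling is less clear. Sfrp1, Dkk3 and Sfrp2 led, and Sfrp1 took 35.3% ± 3.47 of the summed antagonist FPKM in controls (SD, n = 5). Frzb was at 21.6 FPKM, Dkk2 at 14.1, Wif1 at 11.7 and Notum at 8.09 FPKM, while Sfrp5, Sfrp4 and Dkk1 were at 1.89, 1.54 and 0.176 FPKM.

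Inside the cell, Axin1 was at 26.4 FPKM and Axin2, itself a target of beta-catenin, at 17.8 FPKM. Dvl3, Dvl1 and Dvl2 were at 15.8, 15.4 and 9.79 FPKM, and Dvl3 and Dvl1 overlapped. Tcf7 and Tcf7l1 were at 22.7 and 20.3 FPKM, above Lef1 at 7.86 and Tcf7l2 at 3.19 FPKM in all libraries. Among planar polarity genes Vangl2 and Celsr1 were at 12.98 and 12.9 FPKM and could not be ordered. Prickle1 was at 9.71 FPKM, Vangl1, Celsr2 and Prickle2 were at 6.10 to 4.63 FPKM, and Celsr3 was lowest at 1.04 FPKM.

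The next question was whether the members differed between the genotypes. Of the 60 tested, 0 were called lower and 0 higher by edgeR at an adjusted p under 0.05, where 0.543% and 0.072% of all tested genes were called lower and higher (0.615% in either direction). Without control 2, a library low in many members, the counts were again 0 and 0, beside 0.986% lower, 0.0947% higher and 1.08% in either direction among all genes. DESeq2 called 1 lower member, Wnt3, and 1 higher member, Sfrp2, where it called 1.4% of all genes lower, 0.299% higher and 1.7% in either direction. With limma-voom 0 members were called lower and 0 higher, beside 0.548%, 0.072% and 0.62% of all genes. At an unadjusted edgeR p under 0.05 there were 13 higher and 3 lower members, or 16 of 60 in all, beside 3.81%, 5.62% and 9.43% of all tested genes.

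Each member's interval, taken singly and for bulk tissue, gives the precision of its estimate. The 95% interval of the log2 fold change lay within a 2-fold change in either direction for 55 of the 60 members and within a 1.5-fold change for 50. The 5 members whose interval reached beyond 2-fold were Dkk1, Sfrp4, Wnt10b, Wnt2 and Wnt2b, all low in level. Only Dkk1, Wnt2 and Wnt10b had a library with fewer than 10 counts among the tested members.

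**Figure D2:**
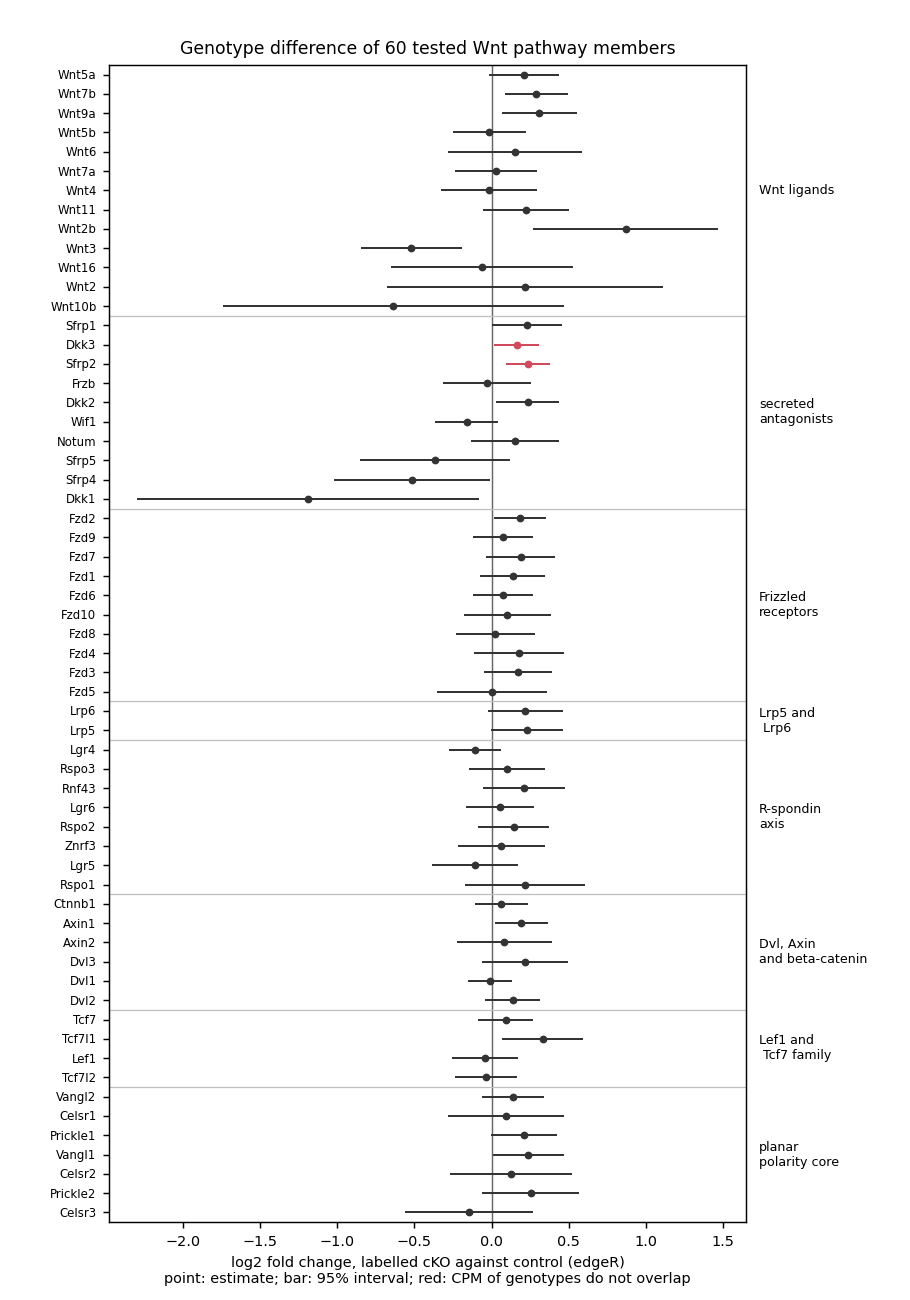
Log2 fold change of the libraries labelled cKO against controls for the 60 tested members (points, edgeR estimates; bars, 95% intervals), grouped by role, with the 2 members whose CPM do not overlap between genotypes, Sfrp2 and Dkk3, in red. Apart from Wnt2b, all estimates above 0 lie below 0.35, and the wide bars belong to low members such as Dkk1, Wnt10b and Wnt2.

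Most estimates were slightly above 0. The median log2 fold change was 0.13 over the 60 members and -0.01 over all tested genes, and 44 of 60 members had an estimate above 0, where 47.7% of all tested genes did. Without control 2 the members' median was 0.067 and 41 of 60 were above 0, beside 48.4% of all genes. With DESeq2 44 of 60 were above 0 (48.5% of all genes) and with limma-voom 45 of 60 (48.8%). The excess of members above 0 had the same direction in each of these fits, and the median was smaller without control 2. The fits share their libraries, so a like direction in them is not separate support. Values of different members in the same library are not independent either, so the 60 signs are not 60 separate observations. Members at an unadjusted p under 0.05 numbered 17 of 60 without control 2, beside 10.2% of all genes.

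Control 2 was low across many members. It held the lowest CPM of the 5 controls for 32 of the 60 members and the highest for 9, whereas over all tested genes it was lowest for 35.4% and highest for 34.6%. Its median difference from the mean of the other controls was -0.20 over the members on the log2(CPM + 1) scale and -0.0076 over all tested genes. Planar polarity genes show the size of such gaps. Celsr1 was at 73.2 CPM in control 2 and at 142 to 176 CPM in the other controls, and Celsr2 was at 32.4 CPM against 69.0 to 75.4 CPM. Lrp5, Lrp6, Rnf43, Fzd4 and Dvl3 were lowest there too, while Wnt6, Wnt4, Wnt5b, Notum and Lef1 were highest there among controls. The exons of the members have a median summed length of 4366 bp against 3936 bp for all tested genes, and the part of length in these values was not tested. Marker sums also set control 2 apart from the other controls. Its supporting cell markers summed to 1275 CPM against 1769 to 2009 CPM, and its erythroid markers to 2932 CPM against 719 to 2225 CPM. Its periotic mesenchyme markers summed to 4302 CPM against 3270 to 3685 CPM. Tecta made up most of the first sum, at 880 CPM against 1326 to 1571 CPM. Fgfr3, Prox1, Jag1 and Cdkn1b were also lowest in control 2, while Hes5 was highest, and Sox2 and Lfng lay within the other controls' range. Otor made up most of the mesenchyme sum, at 3172 CPM against 1982 to 2299 CPM. Pou3f4 and Tbx18 were lowest in control 2, at 384 and 368 CPM against 521 to 590 and 399 to 437 CPM. Coch and Tbx15 lay within the range of the others. The part of these cell types in the members' values was not tested either.

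**Figure D3:**
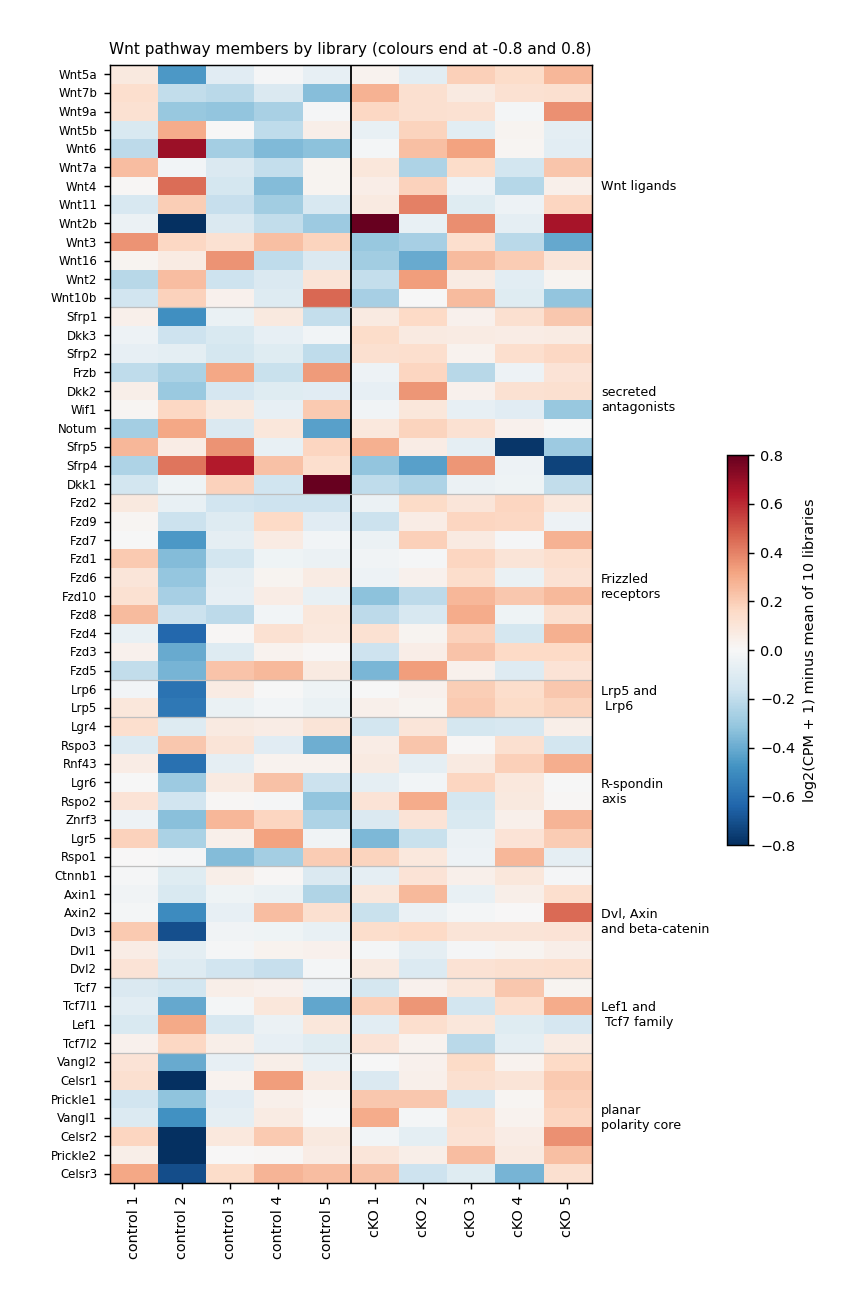
Each row is a tested member and each column a library, coloured by log2(CPM + 1) minus the member's mean over the 10 libraries, with colours ending at -0.8 and 0.8. The column of control 2 is blue for most receptors and planar polarity genes and red for Wnt6, Wnt4 and Lef1.

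Among the antagonists, Sfrp2 had the smallest p of all members. The control libraries 1 to 5 held 116, 115, 110.0, 113 and 105 CPM of Sfrp2, and the libraries labelled cKO held 133, 133, 124, 133 and 136 CPM. Every library labelled cKO was above every control library. The edgeR estimate was 0.24 (SE 0.0627, 95% interval 0.10 to 0.37, adjusted p 0.161). The adjusted p was 0.00685 with DESeq2 and 0.158 with limma-voom, and it ran from 0.051 (without control 2) to 0.413 when edgeR was refitted without each library. Sfrp2 (ENSMUSG00000027996) lies on GRCm38 chromosome 3 from 83766321 to 83774316, just after the window printed above, and its exons overlap those of Gm26771 on the opposite strand.

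Dkk3 was the other member without overlap. Its CPM were 241, 221, 228, 237 and 244 in controls 1 to 5 and 275, 260, 258, 257 and 259 in the libraries labelled cKO. All 5 libraries labelled cKO were above all controls. Here edgeR estimated 0.16 (SE 0.0646, adjusted p 0.449). Thus 2 of 60 members had CPM without overlap, both higher. Counted in either direction, this share is near the 2.79% of all tested genes without overlap (1.13% higher, 1.66% lower).

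**Figure D4:**
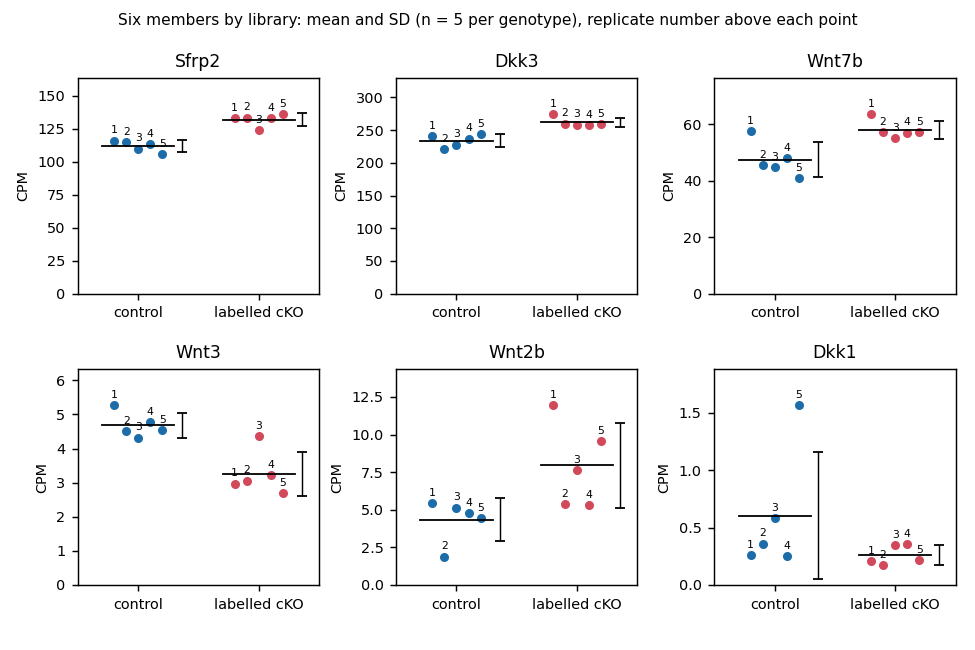
CPM of Sfrp2, Dkk3, Wnt7b, Wnt3, Wnt2b and Dkk1 in each library (points, with the replicate number), with the mean as a line and the SD as a bar (n = 5 per genotype); each axis starts at 0. Sfrp2 and Dkk3 do not overlap between genotypes, Wnt3 and Wnt7b overlap in 1 library each, and Dkk1 rests on control 5.

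Further antagonists gave values in both directions. Sfrp1 was at 482, 333, 451, 494 and 409 CPM in controls and at 491, 523, 478, 512 and 544 CPM in the libraries labelled cKO. Its estimate of 0.23 (SE 0.103) was 0.15 without control 2. Dkk2 averaged 48.2 ± 4.16 CPM in controls (SD, n = 5) and 56.7 ± 6.35 CPM in the other genotype, also with an estimate of 0.23. By edgeR the adjusted p were 0.501 and 0.438. Sfrp4, Sfrp5 and Wif1 had estimates of -0.52, -0.37 and -0.16, and Frzb, which is also a cartilage gene, one of -0.03.

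Dkk1 had the most negative estimate, and a single library carried it. Controls 1 to 5 held 0.258, 0.361, 0.584, 0.250 and 1.57 CPM, and the libraries labelled cKO held 0.172 to 0.357 CPM. From edgeR came an estimate of -1.19 (SE 0.514, adjusted p 0.496), which was -0.44 without control 5. In that library the 6 osteoblast markers together reached 545 CPM, where the other controls had 153 to 316 CPM and the libraries labelled cKO 167 to 312 CPM, and 7 erythroid markers reached 2225 CPM against 719 to 2932 CPM in the other controls. The part of these cells in the Dkk1 value was not tested.

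Summed over deposited FPKM, the 11 antagonists lay at 249.95 to 290.1 FPKM in controls and at 298 to 325 FPKM in the libraries labelled cKO, without overlap. Per kilobase with TMM scaling the ranges were 252 to 292 and 300.3 to 326, again apart. The sums of the other 7 of 8 roles overlapped between genotypes on both scales. Sfrp1, Dkk3 and Sfrp2 lead this sum, so it is not independent of their own values, and no test was made of it. Sums without overlap were not particular to the antagonists. Outside the members, 15 other Wnt receptors and co-receptors, a list taken up below, summed to 1463 to 1706 CPM against 1723 to 1903 CPM. That list had 0 called. The 8 macrophage markers summed without overlap as well, at 307 to 358 CPM against 367 to 434 CPM, with 0 of 8 called. The part of other cells in the antagonist sum was not tested.

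Of the 13 tested ligands, 8 had estimates above 0 and 5 below, and 10 were above 0 without control 2. Wnt3 (ENSMUSG00000000125; chromosome 11, 103774150 to 103817957) had the smallest p. Its CPM were 5.27, 4.5, 4.32, 4.77 and 4.54 in controls 1 to 5 and 2.97, 3.06, 4.36, 3.21 and 2.68 in the libraries labelled cKO. Only cKO 3 reached the control range. For Wnt3 edgeR gave -0.52 (SE 0.150, 95% interval -0.84 to -0.20, adjusted p 0.212). The adjusted p was 0.0469 with DESeq2, and it ran from 0.0658 (without cKO 3) to 0.486 when edgeR was refitted without each library.

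Some neuronal and brain marker genes were called lower in the same comparison. Of 9 spiral ganglion markers, 2 were called lower, Elavl4 and Slc17a7. Estimates were below 0 for 6 of the 9 and above 0 for 3, namely Prph (0.50), Gata3 (0.21) and Ntrk3 (0.20). All 9 markers summed to 1024 to 1070 CPM in controls and to 682 to 1240 CPM in the libraries labelled cKO. The sum of 8 Schwann cell and satellite glia markers was at 1166 to 1313 CPM and 801 to 1243 CPM, with 0 called. Of the brain markers, 4 of 8 tested were called lower, namely Olig1, Olig2, Aqp4 and Cbln1. Pdgfra, Slc1a2 and Barhl1 had estimates of 0.24, 0.35 and 0.39, with edgeR adjusted p of 0.499, 0.524 and 0.455, and Gfap one of -0.27. The sum of the list is mostly Pdgfra and Slc1a2. It was at 410 to 570.0 CPM in controls and at 499 to 674 CPM in the libraries labelled cKO. The part of all these markers in the Wnt3 value was not tested.

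Wnt2b had the highest estimate. Controls 1 to 5 held 5.46, 1.89, 5.14, 4.80 and 4.44 CPM and the libraries labelled cKO 11.9, 5.38, 7.63, 5.33 and 9.54 CPM. Control 1 overlapped cKO 2 and cKO 4, and control 2 was the lowest of all. With edgeR the estimate was 0.87 (SE 0.276, 95% interval 0.28 to 1.46, adjusted p 0.293), and it was 0.68 without control 2.

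Wnt7b and Wnt9a, the ligands next in level to Wnt5a, had estimates close to each other. Wnt7b was at 57.6, 45.6, 44.9, 48.1 and 41.0 CPM in controls and at 63.6, 57.3, 55.0, 57.0 and 57.2 CPM in the libraries labelled cKO. Only control 1 reached the second range. By edgeR its estimate was 0.29 (SE 0.0914, adjusted p 0.284, or 0.0802 without control 1). Wnt9a averaged 24.1 ± 3.55 CPM in controls (SD, n = 5) and 29.9 ± 3.03 CPM in the other genotype, with an edgeR estimate of 0.31 and an adjusted p of 0.357. Exons of Wnt7b overlap those of AU022754 on the opposite strand.

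For Wnt5a the CPM were 333, 229, 297, 313 and 301 in controls and 322, 297, 360.0, 350 and 379 in the libraries labelled cKO. The estimate of 0.21 (SE 0.103) had a 95% interval from -0.01 to 0.43 and was 0.13 without control 2. Wnt5b, Wnt4, Wnt7a and Wnt16, none of which was named by the rule, had estimates between -0.06 and 0.03. Wnt6, also outside the rule, was at 20.1 CPM in control 2 and at 9.27 to 10.35 CPM in the other controls, and its estimate of 0.15 was 0.43 without control 2 (edgeR adjusted p 0.0982). Wnt11, whose window holds a Tcf and Lef core, had one of 0.22 and Wnt5b, whose window holds another, one of -0.02. The summed FPKM of all 19 ligands was at 78.8 to 90.1 in controls and at 89.0 to 99.1 in the libraries labelled cKO, with Wnt5a as its main part.

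All 10 Frizzled genes had estimates above 0, with a median of 0.12, 0 calls and 1 at an unadjusted p under 0.05. Without control 2, 8 of 10 were above 0. Fzd2 had the smallest p. It was at 194, 176, 165, 163 and 164 CPM in controls and at 177, 205, 197, 207 and 195 CPM in the libraries labelled cKO, where cKO 1 alone lay within the control range. Its edgeR estimate was 0.19 (SE 0.0748, adjusted p 0.452). Fzd7 and Fzd9 had estimates of 0.19 and 0.08, with 95% intervals of -0.03 to 0.41 and -0.11 to 0.27.

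Lrp5 and Lrp6, the co-receptors, had like values by library. Lrp6 was at 216, 145, 229, 219 and 214 CPM in controls and at 219, 224, 251, 241 and 255 CPM in the libraries labelled cKO. Lrp5 was at 135, 84.9, 122, 125 and 122 CPM and at 130.1, 129, 147, 141 and 143 CPM. Control 2 was far below the other controls for both. Their estimates, 0.22 for Lrp6 and 0.23 for Lrp5, became 0.11 and 0.13 without it, and edgeR gave adjusted p of 0.568 and 0.527.

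In the R-spondin axis 6 of 8 tested members had estimates above 0, and 4 of 8 without control 2, with 0 calls and 0 at an unadjusted p under 0.05. Lgr4 had an estimate of -0.11, at 110.0 to 129.8 CPM in controls and at 106.9 to 126.5 CPM in the other genotype. Rspo3 had one of 0.10 and Rnf43 one of 0.21, which was 0.10 without control 2. Lgr5, named after its values were seen because it marks supporting cells, was at 35.4, 25.9, 31.9, 39.0 and 30.3 CPM in controls and at 24.0, 27.3, 29.98, 33.5 and 35.8 CPM in the libraries labelled cKO. The ranges overlapped nearly in full, and the 95% interval of its estimate was -0.38 to 0.16.

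Canonical effectors gave no call. Ctnnb1 was at 1366 to 1528 CPM in controls and at 1406 to 1592 CPM in the libraries labelled cKO, with an estimate of 0.06 (95% interval -0.10 to 0.23). Exons of Ctnnb1 overlap those of Ulk4 on the opposite strand and Mir7090 on its own. Axin1 averaged 95.05 ± 5.69 CPM in controls (SD, n = 5) and 109 ± 8.95 CPM in the other genotype, with an edgeR estimate of 0.19 and an adjusted p of 0.445. The beta-catenin target Axin2 was at 96.0, 68.2, 92.8, 116 and 106 CPM in controls and at 85.7, 94.05, 96.2, 97.5 and 134 CPM in the libraries labelled cKO. Its estimate was 0.08 (95% interval -0.22 to 0.38), and the sign turned without control 2 and without cKO 5. Genes on the opposite strand share exon sequence with Axin2 (Gm11670), Wnt5a (Gm2670), Lef1 (Gm43352), Rspo3 (Gm48159), Wnt11 (Gm8398), Vangl1 (Gm16160) and Notum (Myadml2os and Notumos).

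Of the transcription factors, Tcf7l1, known mainly as a repressor, had the lowest p. Its CPM were 74.5, 59.3, 78.4, 84.4 and 59.0 in controls and 90.5, 101, 71.4, 87.1 and 97.3 in the libraries labelled cKO. Only cKO 3 lay within the control range. An estimate of 0.33 (SE 0.119, 95% interval 0.08 to 0.59) came with an edgeR adjusted p of 0.368, and its exons overlap those of Gm15401. Tcf7, the member whose window holds the receptor core, had an estimate of 0.09 (95% interval -0.08 to 0.27), and Lef1 had one of -0.04 that turned to 0.03 without control 2.

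Among the planar polarity genes, 6 of 7 had estimates above 0, and 4 of 7 without control 2. Vangl1 was at 40.3, 30.9, 41.4, 45.5 and 43.3 CPM in controls and at 53.6, 43.0, 47.7, 44.3 and 49.1 CPM in the libraries labelled cKO. The estimate for Vangl1 was 0.24 (SE 0.105, edgeR adjusted p 0.499), and 0.15 without control 2. Prickle1 had one of 0.21 and Vangl2 one of 0.14. Prickle2, not named by the rule, had the highest of the 7 at 0.25 (95% interval -0.06 to 0.56), which was 0.11 without control 2, and its window holds a Tcf and Lef core. Celsr1 had one of 0.09 that turned to -0.07 without control 2.

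Members differed in how much they varied between animals of 1 genotype. The coefficient of variation of CPM over the 60 tested members had a median of 14.2% in controls, from 3.61% for Dvl1 to 91.9% for Dkk1. In the libraries labelled cKO it had a median of 9.96%, from 1.84% for Dvl3 to 74.0% for Wnt10b. For Dvl3 the control value was 21.3%, where control 2 was at 61.4 CPM and the others at 96.6 to 116 CPM.

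Other genes of the pathway were taken from 7 lists. Of 116 symbols 114 matched the annotation and 109 were tested. Plcb1, a phospholipase listed among the noncanonical effectors, was the one gene called, and it fell by 0.58 on the log2 scale (SE 0.111, edgeR adjusted p 0.0292). It was at 16.3, 13.9, 16.7, 19.7 and 20.1 CPM in controls and at 10.8, 11.7, 12.6, 11.6 and 11.5 CPM in the libraries labelled cKO, without overlap. Exons of Plcb1 overlap those of 9630028H03Rik. Over the 109 genes the median estimate was 0.06 (0.02 without control 2), with 14 at an unadjusted p under 0.05. The call of 1 gene is 0.917% of the 109, beside 0.615% of all tested genes, and the 14 are 12.8%, beside 9.43%.

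By list, the 2 genes of Wnt secretion, Porcn and Wls, had a median estimate of 0.07. The 14 tested receptors and co-receptors had one of 0.15 with 13 estimates above 0, beside 47.7% of all tested genes. The 14 extracellular modulators had one of 0.06. The 18 genes of the destruction complex had a median of 0.00 and the 16 nuclear partners one of 0.12. The 17 beta-catenin targets outside the members had one of 0.04, with 9 above 0 and 8 below. All of these lists had 0 calls, and the 28 noncanonical effectors, with Plcb1 called, had a median of 0.04. Control 2 had the lowest CPM sum of the controls in each list except Wnt secretion and the modulators, where it had the highest. For the receptors and co-receptors it was at 1463 CPM against 1630 to 1706 CPM in the other controls. For the nuclear partners it was at 1297 CPM against 1618 to 1680 CPM.

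Counting Plcb1, 3 of the 109 genes did not overlap between genotypes, or 2.75%, close to the 2.79% of all tested genes. Gpc4, a heparan sulfate proteoglycan that binds Wnts, was at 50.3 to 58.0 CPM in controls and at 58.2 to 75.5 CPM in the libraries labelled cKO. Sulf1, a sulfatase that edits heparan sulfate, was at 249 to 306 CPM and at 311 to 358 CPM. The estimates were 0.31 (SE 0.0847) for Gpc4 and 0.24 (SE 0.0802) for Sulf1, and edgeR gave adjusted p of 0.175 and 0.332.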

How the data were processed

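Per the labels' protocols, polyadenylated RNA was sequenced as paired reads of 150 bp. The authors deposited whole-number counts per Ensembl gene and FPKM values. The submitters' processing notes name STAR 2.5, HTSeq 0.61, DESeq2 2 and the build mm10. The use of strand and the annotation are not given in the sources used here. Symbols and positions were taken from GENCODE M21 (GRCm38), which held 54495 of 54532 gene IDs. The deposited FPKM implied its merged exon length within 0.1% for 95.3% of 13923 genes that had 50 or more counts in all libraries. The other 37 IDs held 0.00763% of the counts.

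Deposited counts of genes with at least 10 counts in at least 5 libraries were tested with edgeR 4.0.16 (TMM, robust quasi-likelihood F-test, genotype as the only term, Benjamini-Hochberg adjustment over 18061 genes, called at 0.05), after the procedure was tested on simulated data. Standard errors were derived from the F statistic, and 95% intervals from the total degrees of freedom of the fit (residual plus prior). DESeq2 1.42.0 and limma 3.58.1 were alternatives, beside other scalings, filters, a replicate block, a threshold of 0.1 and leaving out each library. The named members were those without overlap between genotypes, the next 12 by p and the 3 highest in FPKM of each role, 29 in all, beside Esrrg. Genes named beyond these, among them members given only by level, were chosen after their values were seen. The members and lists were chosen with earlier results of these data known. Replicates are separate animals, and no explanation was tested.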

Additional observations from a re-analysis of the deposited data

Results flagged for a closer look

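Each group of 5 libraries was examined for 1 library far from the other 4 by Dixon's test (critical value 0.71), for Esrrg, for the named members and for the median deviation of all tested members. Of 62 groups, 9 held such a library, where chance flags about 5% of groups, or 3.1, and 4 of the 9 fell on control 2. Values of different members in the same library are not independent.

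In control 2, Lrp6 was at 145 CPM where the other controls had 214 to 229, Lrp5 at 84.9 (others 122 to 135), Rnf43 at 31.1 (others 45.2 to 49.5) and Wnt2b at 1.89 (others 4.44 to 5.46). In control 5, Dkk1 was at 1.57 CPM where the other controls had 0.250 to 0.584. In the libraries labelled cKO, Axin2 was at 134 CPM in cKO 5 (others 85.7 to 97.5), Wnt7b at 63.6 in cKO 1 (others 55.0 to 57.3), Dkk3 at 274.5 in cKO 1 (others 257 to 260), and Sfrp2 at 124 in cKO 3 (others 133 to 136). No cause of these values was tested.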

How the results depend on the processing

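The count of called members was 0 lower and 0 higher under each alternative, including the replicate block and each library left out, except with DESeq2, which called 1 lower (Wnt3) and 1 higher (Sfrp2). The median log2 fold change of the members ran from 0.11 to 0.14 over the other settings and from 0.067 (without control 2) to 0.14 with 1 library left out. Over all genes, DESeq2 called 253 lower and 54 higher genes where edgeR called 98 and 13, a threshold of 0.1 gave 24 higher genes, and fits with 1 library left out gave 44 (without control 3) to 177 (without control 2) lower and 7 to 17 higher genes. For Esrrg the log2 fold change ran from 0.54 to 0.70 with 1 library left out. The shared replicate numbers are not shown to pair the animals: the correlations of same-numbered libraries' deviations ran from -0.0267 to 0.274, and 3 of 5 controls correlated best with their own number. With the replicate block, 81 lower and 16 higher genes were called, and Esrrg had a log2 fold change of 0.61 with an adjusted p of 0.0623. With 1 library left out, the sign of the estimate turned for 16 of the 60 tested members, 3 of them among the 29 named by the rule, and the cause was not tested. Axin2 ran from -0.038 (without cKO 5; -0.023 without control 2) to 0.16, Lef1 from -0.083 to 0.031 (without control 2), and Celsr1 from -0.071 (without control 2) to 0.20. The low counts of Dkk1, Wnt2 and Wnt10b limit what can be said of them.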

Other observations

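Several members that are rare in this tissue had their highest count in control 5. Dkk1 had 61 counts there and at most 20 in any other library, and Wnt10b had 33 against at most 24. Rspo4 had 13 counts, Wnt1 had 4, Wnt8a had 3 and Dkk4 had 2, each the highest of the 10 libraries. Other rare members did not: Wnt9b and Wnt3a were highest in control 1, and Wnt2 and Wnt8b in cKO 2. Wnt10a had its highest count, 7, in control 5 and also in control 2, control 3 and cKO 3. Control 5 was also the library with the highest sum of osteoblast markers, 545 CPM, of which Ibsp alone held 318 CPM. These counts were noticed after the values were seen, and their cause was not tested.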
